A study of Mus musculus with 16 samples.

Results

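The 9 genes described here, F3, Tfpi, Thbd, Procr, Vwf, Plat, Plau, Plaur and F2r, encode the parts of the clotting and clot-dissolving systems that sit on or are released by vessel walls and other local cells. The rule that picks them names the genes and uses no measured value, though they were named with earlier results of these data known. All 9 were measured, out of 18193 genes on the array. The 9 genes have 15 probe sets, and each gene was read from its brightest, averaged over all 16 arrays, with the others as a check. RNA came from the ventricular myocardium of male CD1 mice aged 14 weeks that lacked the adenosine 2A receptor (A2AR KO) or were WT littermates. Mice of each genotype had received 1 intraperitoneal dose of lipopolysaccharide (LPS, an E. coli endotoxin) at 20 mg/kg or saline 24 h earlier, so that the groups were KO LPS, KO saline, WT LPS and WT saline, with 4 arrays each. The labels describe the deletion without naming a tissue to which it was restricted, and they do not say how many animals stood behind an array, so p-values measure the spread between these arrays.

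Tissue factor, the product of F3, starts clotting when it meets factor VII, and tissue factor pathway inhibitor (Tfpi) blocks that step. Thrombin then acts through its receptor F2r on cells, and on the endothelium thrombomodulin (Thbd) turns it into an activator of the anticoagulant protein C. The endothelial protein C receptor (Procr) presents protein C for this step. Von Willebrand factor (Vwf) tethers platelets to injured vessels, while tissue-type and urokinase-type plasminogen activators (Plat and Plau) and the urokinase receptor (Plaur) serve the formation of plasmin, which dissolves fibrin. Endotoxin is known as a stimulus that shifts this balance in vessels.

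Values are log2 RMA levels, and the median over all probe sets was 4.62 to 4.67 in each array. The first principal component over all genes took 66.3% of the variance and parted LPS from saline arrays, with WT LPS array 4 nearest to the saline arrays (-7.6, against -54 to -27.6 in the other LPS arrays and 35.5 to 39.6 in saline arrays). KO LPS array 2 lay farthest from the saline arrays on this component (-54) and had the highest value of the second (36.6), and these 2 arrays had the lowest quality weights (0.285 for KO LPS array 2 and 0.217 for WT LPS array 4). Cardiomyocyte markers were bright in every array, with means of 13.36 to 13.83. Skeletal muscle markers were high in WT saline arrays 1 and 4 (6.88 and 8.41, against 4.63 to 5.04 in the other arrays). The transcript of the targeted receptor is not analysed here, so each genotype rests on its label.

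After LPS, 5 of the 9 genes changed in KO hearts and 4 in WT hearts. Plaur, Procr and Plat rose and F3 fell in each genotype, and Vwf fell in KO hearts. A change here is an adjusted p under 0.05 in limma over all 18193 genes, a mark passed by 26.1% of all genes in KO and 20.9% in WT hearts. The median absolute log2 change of the 9 genes was 1.03 in KO and 0.78 in WT hearts, against 0.17 and 0.15 over all genes tested. All members but Plau were above the median level over all probe sets in at least 15 arrays. Genes above that level in at least 4 arrays pass more often: tested alone, 4704 of these 11682 genes were called in KO hearts. This filter also admits genes bright only after LPS or only after saline. The KO share over all genes is thus a low mark for genes that pass the filter. No share was computed for genes bright in as many arrays as these members. In KO hearts 3 genes rose and 2 fell, where 11.4% and 14.7% of all genes did, and in WT hearts 3 rose and 1 fell, where 9.28% and 11.6% did. The ranges of the LPS and saline groups were separate for 4 genes in KO hearts and for 3 in WT hearts, where this held for 28.5% and 22.8% of all genes. In the plot of values by array, the LPS arrays of Plaur, Vwf and Thbd are spread far more widely than the saline arrays.

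**Figure D1:**
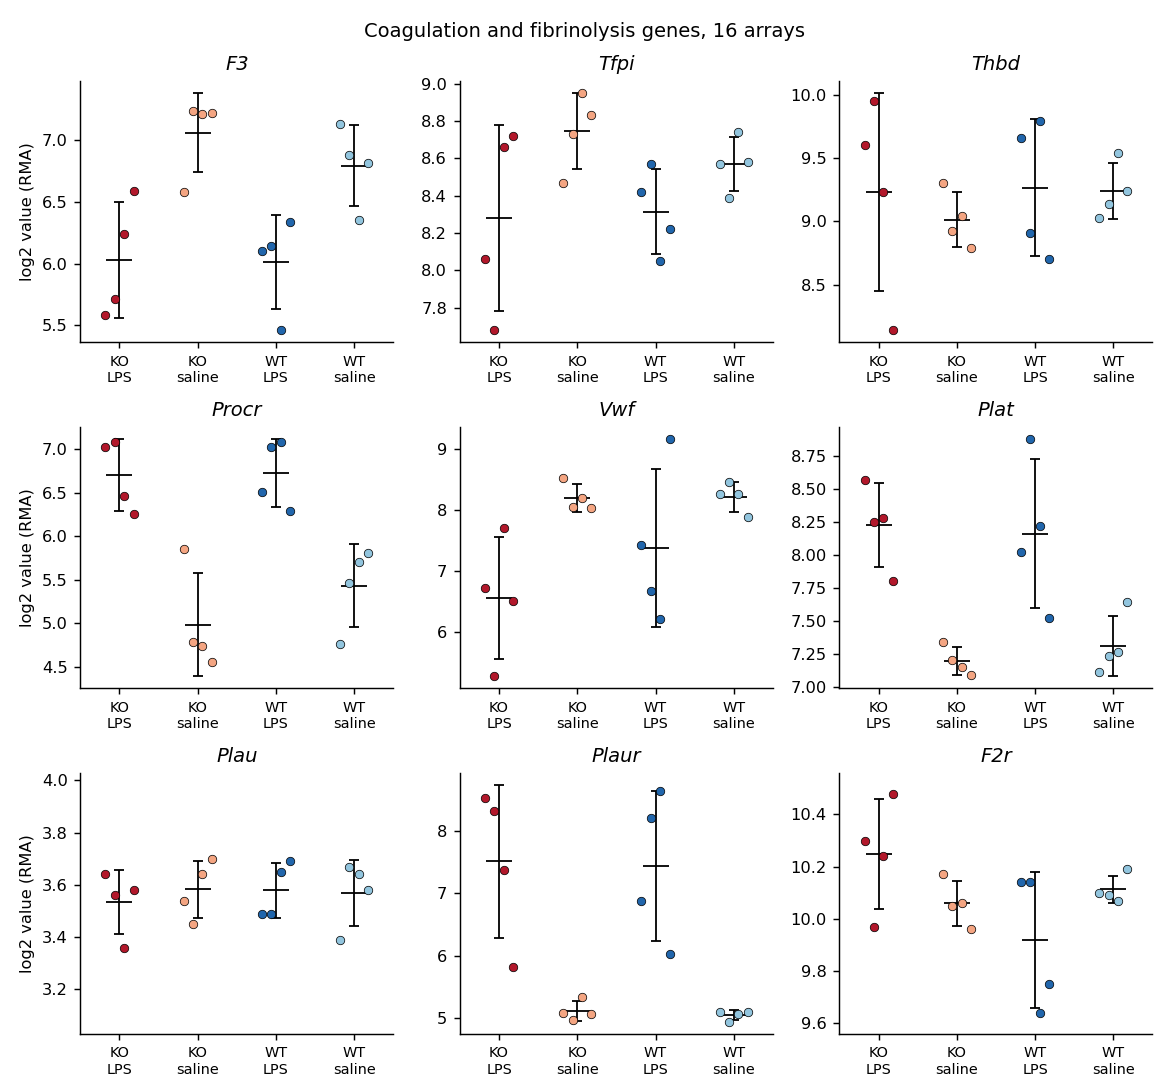
Log2 RMA level (vertical axes) of the 9 genes in KO LPS, KO saline, WT LPS and WT saline hearts, 1 point per array, with group mean and SD (n = 4). Plaur lies between 5.82 and 8.64 in LPS arrays and between 4.94 and 5.34 in saline arrays, and F3 runs the other way.

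The initiator of clotting was lower after endotoxin. F3 stood at log2 values of 5.58, 5.71, 6.24 and 6.59 in KO LPS hearts, against 6.58, 7.24, 7.21 and 7.22 in KO saline hearts. In WT hearts it stood at 6.10, 6.14, 5.46 and 6.34 after LPS, against 7.13, 6.88, 6.35 and 6.82 after saline. The KO groups met at 1 point, where LPS array 4 and saline array 1 nearly coincided, and the WT groups did not overlap. The log2 change was -1.03 ± 0.24 (SE) in KO hearts, with an adjusted p of 0.004 in limma. In WT hearts it was -0.78 ± 0.24 (limma adjusted p = 0.0269). The WT call was lost without WT LPS array 3 (limma adjusted p = 0.103) or WT saline array 1 (0.0892), 2 (0.0658) or 4 (0.0602), and the KO call held in all 27 alternative settings. Of 10 smooth muscle and pericyte markers, 8 fell in each genotype, and of 9 fibroblast markers, 4 fell in each. The mean over the fibroblast markers ran from 8.59 to 9.43 in KO LPS, against 9.95 to 10.06 in KO saline arrays, and from 8.70 to 9.99 in WT LPS, against 10.01 to 10.19 in WT saline arrays. The part of these markers in the level of F3 was not tested.

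Its inhibitor gave no single answer. The chosen probe set of Tfpi, 1438530_at, stood at 8.06, 7.68, 8.66 and 8.72 in KO LPS hearts, against 8.47, 8.73, 8.95 and 8.83 in KO saline hearts. The WT values were 8.42, 8.57, 8.05 and 8.22 after LPS, against 8.57, 8.39, 8.74 and 8.58 after saline. LPS arrays reached lower than saline arrays in each genotype, but the groups overlapped. The log2 changes of -0.47 ± 0.20 and -0.26 ± 0.20 did not pass (limma adjusted p = 0.0903 in KO and 0.425 in WT hearts). Without KO LPS array 3 or 4 the KO change was -0.59 or -0.61 and passed (limma adjusted p = 0.0419 and 0.0251). Without KO LPS array 2 it was -0.27 (limma adjusted p = 0.286), and with the mean of all 4 probe sets -0.16 (0.671). In WT hearts the change was -0.17 without WT LPS array 3 (limma adjusted p = 0.685).

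The other Tfpi probe sets are in the plot of the 4 probe sets. Probe set 1452432_at had log2 changes of -0.42 in KO hearts, near that of the chosen one, and 0.06 in WT hearts. Probe set 1451791_at averaged 8.50 ± 0.42 in KO LPS and 8.24 ± 0.21 in KO saline hearts, and 8.55 ± 0.08 in WT LPS and 8.31 ± 0.22 in WT saline hearts (SD, n = 4 each). The log2 changes of 1451791_at were 0.26 in KO and 0.24 in WT hearts, and those of 1451790_a_at were 0.01 and 0.40. None of the 4 probe sets was called in either genotype. The level of 1451791_at over that of 1438530_at within an array was higher after LPS, by 0.73 on the log2 scale in KO and by 0.49 in WT hearts. The LPS and saline arrays did not overlap in this difference in either genotype. For 1452432_at the corresponding differences were 0.05 (exact permutation p = 0.743) and 0.32 (exact permutation p = 0.114). For 1451790_a_at they were 0.48 in KO hearts (exact permutation p = 0.114) and 0.65 in WT hearts (exact permutation p = 0.0286, adjusted 0.0572). The LPS and saline arrays did not overlap in the latter. For 1451791_at the exact permutation test gave p = 0.0286 in each genotype, the smallest that 4 against 4 arrays can give, and 0.0572 adjusted over the 6 such comparisons made. Which transcripts each probe set detects is not given in the sources used here, and this comparison was made after the values had been seen.

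**Figure D2:**
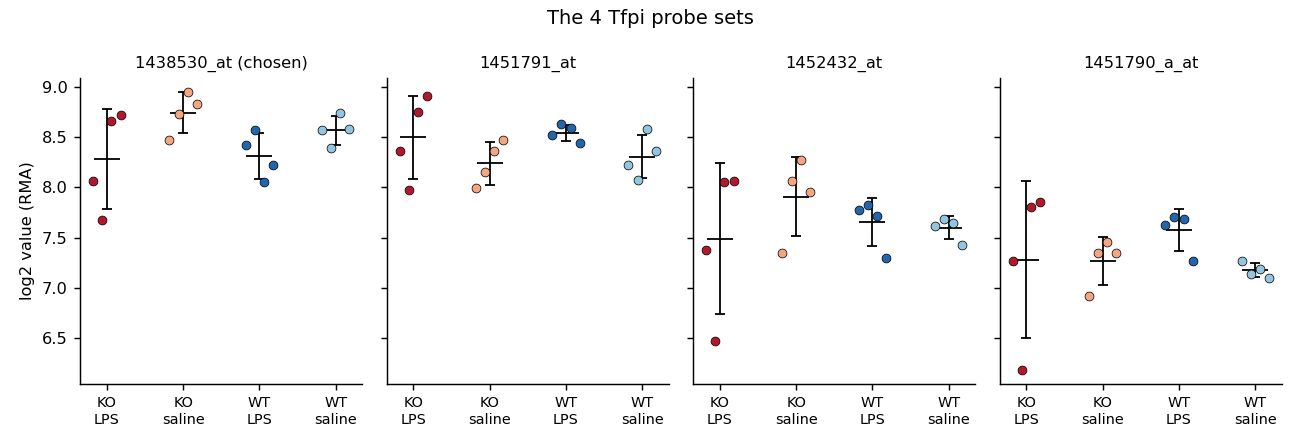
Log2 RMA level (vertical axis) of each of the 4 Tfpi probe sets by group, 1 point per array, with mean and SD (n = 4). The chosen probe set averages lower in LPS than in saline hearts (8.28 against 8.75 in KO, 8.31 against 8.57 in WT), while 1451791_at averages higher (8.50 against 8.24, and 8.55 against 8.31).

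Of the genes that serve protein C activation, Procr rose in each genotype and Thbd was not called. Procr, the receptor that presents protein C on endothelium, stood at 7.03, 7.09, 6.46 and 6.26 in KO LPS hearts, against 5.86, 4.78, 4.74 and 4.56 in KO saline hearts. WT hearts had 6.51, 7.03, 7.08 and 6.29 after LPS, against 4.76, 5.46, 5.71 and 5.81 after saline. Every LPS array exceeded every saline array of its genotype. The rise was 1.72 ± 0.29 on the log2 scale in KO hearts, 3.29-fold (limma adjusted p = 0.00035). It was 1.29 ± 0.29 in WT hearts, 2.44-fold (limma adjusted p = 0.00424). The saline values of 4.78, 4.74 and 4.56 in KO and 4.76 in WT hearts lay near the median level over probe sets (4.64). Procr has 1 probe set, so no other probe set checks the rise.

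Thbd, the thrombin-binding partner in the same step, stood at 9.60, 9.95, 9.23 and 8.14 in KO LPS hearts, against 9.30, 8.92, 9.04 and 8.79 in KO saline hearts. The WT values were 9.66, 8.91, 9.79 and 8.70 after LPS, against 9.03, 9.14, 9.54 and 9.24 after saline. LPS arrays lay above and below the saline arrays. The log2 change was 0.22 in KO hearts, with a 95% interval of -0.43 to 0.87 (limma adjusted p = 0.67). It was 0.02 in WT hearts, with an interval of -0.63 to 0.67 (0.973). The SD over LPS arrays was 0.78 in KO and 0.54 in WT hearts, against 0.22 over the saline arrays of each genotype.

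Vwf, an endothelial product, stood at 6.72, 5.28, 7.71 and 6.51 in KO LPS hearts, against 8.53, 8.05, 8.19 and 8.04 in KO saline hearts. WT hearts had 7.43, 6.68, 6.22 and 9.17 after LPS, against 8.26, 8.46, 8.26 and 7.88 after saline. All 4 KO LPS arrays and 3 WT LPS arrays lay below every saline array, and WT LPS array 4 lay above them all. The log2 change was -1.65 ± 0.51 in KO hearts, with a 95% interval of -2.72 to -0.58 (limma adjusted p = 0.0233). In WT hearts the log2 change of -0.84 ± 0.51 did not pass (limma adjusted p = 0.293), and without WT LPS array 4 it was -1.43 and passed (limma adjusted p = 0.0117). It also passed with arrays weighted by their quality (-1.20, limma adjusted p = 0.0104). Without WT LPS array 3 it was -0.45 (limma adjusted p = 0.641). The KO call was lost without KO LPS array 2, which had the lowest Vwf and stood apart over all genes (-1.22, limma adjusted p = 0.0831) or KO saline array 1 (-1.54, 0.0603).

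Of 12 endothelial markers, 4 fell in each genotype and 1, Esam, rose, and their median log2 change was -0.36 in KO and -0.35 in WT hearts. Kdr, a vascular growth factor receptor, had log2 changes of -0.71 ± 0.24 and -0.75 ± 0.24. The mean over the markers ran from 7.96 to 8.22 in KO LPS, against 8.18 to 8.60 in KO saline arrays. It ran from 7.96 to 8.58 in WT LPS, against 8.21 to 8.62 in WT saline arrays, and the WT LPS array at 8.58 was number 4. The part of these markers in the levels of Vwf, Procr and Thbd was not tested. In bulk tissue, fewer cells of a type and less RNA per cell cannot be told apart.

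The plasminogen activator made by vessels rose. Plat stood at 8.57, 8.25, 8.28 and 7.80 in KO LPS hearts, against 7.34, 7.20, 7.15 and 7.09 in KO saline hearts. The WT values were 8.02, 8.88, 8.22 and 7.52 after LPS, against 7.11, 7.23, 7.26 and 7.64 after saline. The KO groups did not overlap, and in WT hearts LPS array 4 lay below saline array 4. The rise was 1.03 ± 0.22 on the log2 scale in KO (2.04-fold, limma adjusted p = 0.00244) and 0.85 ± 0.22 in WT hearts (1.80-fold, limma adjusted p = 0.0112). Its second probe set, 1458553_at, averaged 3.66 over the 16 arrays, under the median level over probe sets (4.64), and its log2 changes were 0.07 in KO and -0.02 in WT hearts. With the mean of both probe sets the Plat change was 0.55 in KO (limma adjusted p = 0.00299) and 0.42 in WT hearts (0.0214).

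Urokinase itself gave a dim signal. Plau ran from 3.36 to 3.64 in KO LPS and from 3.45 to 3.70 in KO saline hearts, and from 3.49 to 3.69 in WT LPS and from 3.39 to 3.67 in WT saline hearts. It lay under the median level of 4.64 in all 16 arrays, as did its other probe set, whose mean was 3.02. The log2 changes of -0.05 and 0.01 therefore say little about the transcript.

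Its receptor rose most of the 9 genes. Plaur stood at 8.52, 8.32, 7.37 and 5.82 in KO LPS hearts, against 5.08, 4.97, 5.34 and 5.06 in KO saline hearts. WT hearts had 6.88, 8.20, 8.64 and 6.03 after LPS, against 5.10, 4.94, 5.06 and 5.10 after saline. Every LPS array exceeded every saline array, and array 4 was the lowest of each LPS group. The rise was 2.40 ± 0.53 in KO hearts (5.26-fold, limma adjusted p = 0.00263) and 2.39 ± 0.53 in WT hearts (5.24-fold, 0.00323). Its SD over LPS arrays was 1.23 in KO and 1.20 in WT hearts, against 0.16 over KO saline and 0.08 over WT saline arrays.

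Plaur is also made by neutrophils and macrophages. Of 11 neutrophil markers, 6 rose in KO and 5 in WT hearts, and the mean over them ran from 5.58 to 5.85 in KO LPS, against 4.00 to 4.10 in KO saline arrays. It ran from 5.17 to 5.68 in WT LPS, against 3.97 to 4.11 in WT saline arrays. Of 10 macrophage and monocyte markers, 4 rose and 3 fell in KO hearts, and 4 rose and 2 fell in WT hearts. The mean over them ran from 6.67 to 7.39 in KO LPS, against 6.79 to 6.86 in KO saline arrays, and from 6.97 to 8.22 in WT LPS, against 6.76 to 6.92 in WT saline arrays. The part of these markers in the Plaur rise was not tested.

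The thrombin receptor F2r stood at 10.30, 9.97, 10.24 and 10.48 in KO LPS hearts, against 10.17, 10.05, 10.06 and 9.96 in KO saline hearts. The WT values were 10.14, 10.14, 9.64 and 9.75 after LPS, against 10.10, 10.09, 10.07 and 10.19 after saline. Arrays overlapped in each genotype. The log2 change was 0.19 ± 0.12 in KO (limma adjusted p = 0.308) and -0.19 ± 0.12 in WT hearts (0.324). Its second probe set, 1450852_s_at, changed by 0.17 and -0.17.

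**Figure D3:**
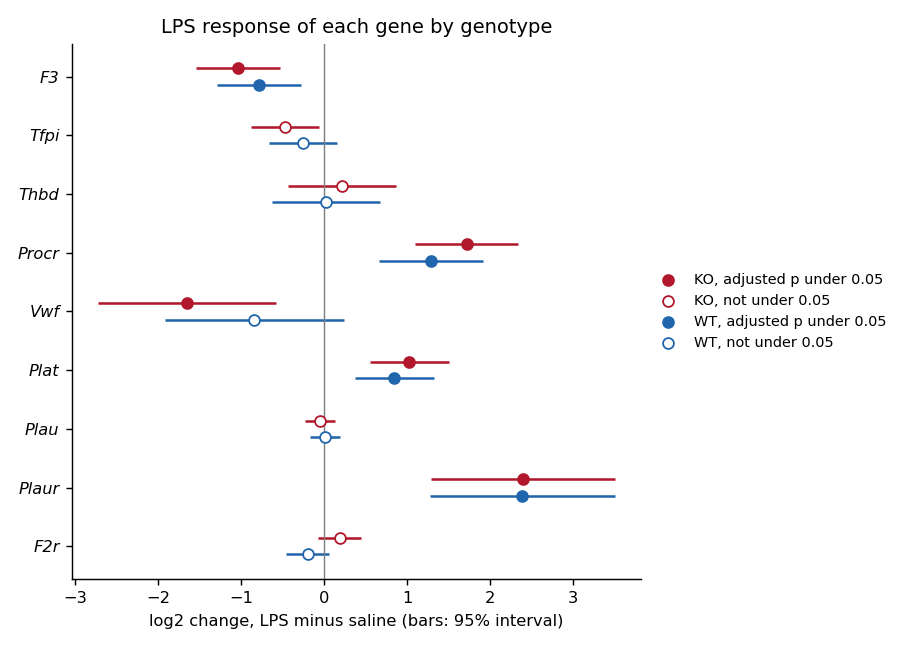
Log2 change, LPS minus saline (horizontal axis), of each gene in KO (upper point of a pair) and WT hearts, with 95% limma intervals and filled points for adjusted p under 0.05. Plaur (2.40 and 2.39) is farthest to the right, Vwf (-1.65 and -0.84) farthest to the left, and the intervals of KO and WT overlap for every gene.

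In the exact permutation test, Procr, Vwf, Plat and Plaur reached p = 0.0286 in KO hearts, the smallest that 4 against 4 arrays can give. F3, Procr and Plaur did so in WT hearts. Such a p arises when the groups do not overlap, as held for 28.5% of all genes in KO and 22.8% in WT hearts. It was not adjusted over the genes, and it restates the separate ranges given above. F3 in KO hearts and Plat in WT hearts, with 1 overlapping pair of arrays each, had an exact p of 0.0571.

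Knockout and WT hearts did not differ in any of the 9 genes past the threshold. After LPS, limma called 0 of 9, where 0.0055% of all genes were called, and the changes ran from -0.82 (Vwf) to 0.33 (F2r). F2r was the 1 gene with an unadjusted p under 0.05 there (0.0162, limma adjusted p = 0.655), where 7.56% of all genes had one. It averaged 10.25 ± 0.21 in KO LPS and 9.92 ± 0.26 in WT LPS hearts (SD, n = 4 each), and the groups overlapped. Its second probe set gave 0.26 (unadjusted p = 0.0982 in limma). The 95% interval of the Vwf difference was -1.89 to 0.25, that of Plaur -1.04 to 1.18, and that of F3 -0.49 to 0.53, so differences of about these sizes could have been missed.

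After saline, limma called 0 of 9 genes, again where 0.0055% of all genes were called, and 0 had an unadjusted p under 0.05, against 3.48% of all genes. Procr had the largest size of difference, averaging 4.99 ± 0.59 in KO saline and 5.44 ± 0.47 in WT saline hearts (SD, n = 4 each). Its log2 difference was -0.45 ± 0.29 (95% interval -1.07 to 0.17, limma adjusted p = 1). KO saline array 1 was the high array of its group, at 5.86.

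The difference of the LPS responses, KO minus WT, was called for 0 of 9 genes by limma, where 0% of all genes were called and 4.47% had an unadjusted p under 0.05. F2r had an unadjusted p of 0.0441 (0.38 ± 0.18, limma adjusted p = 0.959). For Vwf the difference was -0.81 ± 0.72 (95% interval -2.33 to 0.71, limma adjusted p = 0.959). The Vwf call in KO and its absence in WT hearts is thus not a difference between the genotypes past the threshold. For Plaur it was 0.01, with an interval of -1.56 to 1.57, and for Procr 0.43, with one of -0.45 to 1.31.

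Among the 8 LPS arrays the members varied together in part, as the plot against Plaur shows. F3 was lower where Plaur was higher (Pearson r = -0.89, exact permutation p = 0.00444, adjusted p = 0.0192 over 13 relations, n = 8). Spearman's rho was -0.93 (exact permutation p = 0.00223, adjusted 0.029). Without array 4 of each genotype, the arrays farthest from the Plaur median, r was -0.78. For Plat, r was 0.80 (adjusted exact permutation p = 0.0497), but rho was 0.62 (adjusted 0.214) and r without those arrays was 0.49, so that the relation rests on them. Thbd did not pass (r = 0.76, adjusted exact permutation p = 0.0708), and its r was 0.19 without those arrays. Procr was higher where Plaur was higher (r = 0.96, exact permutation p = 0.00139, adjusted 0.00903, n = 8). Its rho was 0.86 (exact permutation p = 0.0107, adjusted 0.0464), and r without the same 2 arrays was 0.94. Its values lay in 2 sets of 4 arrays, at 7.03 to 7.09 and at 6.26 to 6.51, and the upper set was the 4 arrays with Plaur above 8. Those 4 arrays also lay farthest from the saline arrays on the first principal component over all genes (-54 to -46.3, against -41.1 to -7.6 in the other LPS arrays). The share of all genes that vary with Plaur in this way was not computed, so the relations are not shown to be particular to these genes. They were computed after the values had been seen. No r is given within a genotype, which has 4 arrays.

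Of 5 marker lists set against Plaur over the same arrays, 1 passed. The mean over 9 platelet markers had r = 0.93 (exact permutation p = 0.000298, adjusted 0.00387, n = 8) and rho = 0.90 (exact permutation p = 0.00456, adjusted 0.0296), with r = 0.83 without the same 2 arrays, over a range of only 4.85 to 5.18. The corresponding r was -0.72 for macrophage and monocyte markers (adjusted exact permutation p = 0.0708) and 0.29 for neutrophil markers (0.62). It was -0.71 for fibroblast markers (adjusted exact permutation p = 0.0951) and -0.27 for endothelial markers (0.62). In the platelet list, Clec1b, Gp1bb, Gp5, Gp6 and Ppbp averaged under the median level of 4.64 in both LPS groups, and no platelet marker was called higher after LPS. All arrays share the RMA normalization. The part of these measures in the spread of Plaur was not tested.

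**Figure D4:**
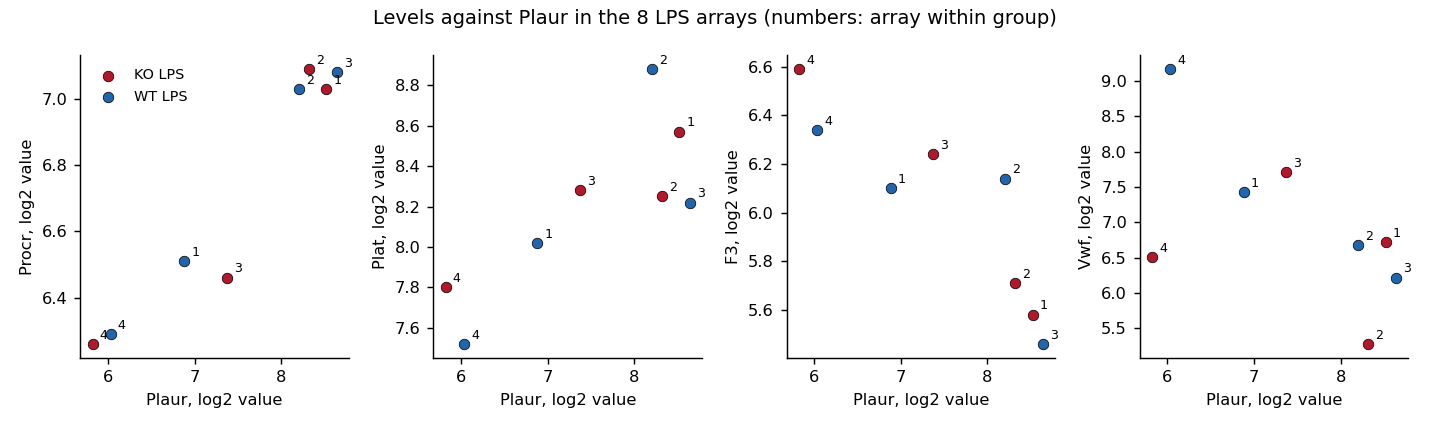
Log2 RMA levels of Procr, Plat, F3 and Vwf (vertical axes) against that of Plaur (horizontal axes) in the 4 KO LPS and 4 WT LPS hearts, 1 numbered point per array. F3 declines from 6.59 at the lowest Plaur to 5.46 at the highest, and Procr lies at 7.03 to 7.09 in the 4 arrays with Plaur above 8.

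The promoters of F3, Procr, Plaur and F2r are shown because they hold a shared element while their transcripts differed after LPS (F3 fell, Procr and Plaur rose, F2r was not called). Promoter sequences were matched for 5 of the 9 genes and are from RefSeq, build GRCm38.p6. Each is the 250 bases before the annotated start, 5′ to 3′ on the gene's strand, with capitals for the AP-1 motif TGANTCA (binding element of Fos and Jun proteins) on either strand. This motif was picked for display from 7 searched after the matches had been seen.
F3 (chr3:121723287-121723536, plus strand): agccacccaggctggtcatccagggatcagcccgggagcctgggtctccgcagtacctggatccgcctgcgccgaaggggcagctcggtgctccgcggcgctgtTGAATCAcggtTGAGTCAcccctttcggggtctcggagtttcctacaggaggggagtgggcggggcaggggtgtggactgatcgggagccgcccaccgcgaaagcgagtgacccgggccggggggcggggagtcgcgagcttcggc
Procr (chr2:155750967-155751216, plus strand): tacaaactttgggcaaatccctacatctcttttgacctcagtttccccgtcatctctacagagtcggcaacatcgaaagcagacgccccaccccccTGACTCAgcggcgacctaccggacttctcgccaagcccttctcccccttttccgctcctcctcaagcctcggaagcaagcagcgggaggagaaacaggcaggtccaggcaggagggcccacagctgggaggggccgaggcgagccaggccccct
Plaur (chr7:24462233-24462482, plus strand): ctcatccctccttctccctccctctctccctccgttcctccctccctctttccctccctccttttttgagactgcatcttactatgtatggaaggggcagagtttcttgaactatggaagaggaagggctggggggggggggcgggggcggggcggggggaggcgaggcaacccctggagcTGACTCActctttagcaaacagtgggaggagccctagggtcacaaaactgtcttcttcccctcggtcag
F2r (chr13:95618467-95618716, minus strand): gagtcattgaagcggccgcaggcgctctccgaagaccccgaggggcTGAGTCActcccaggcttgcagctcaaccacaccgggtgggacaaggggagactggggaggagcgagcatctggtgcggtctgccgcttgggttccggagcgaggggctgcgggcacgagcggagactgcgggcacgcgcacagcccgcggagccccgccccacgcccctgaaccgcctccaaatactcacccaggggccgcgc

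The motif was present in these 4 promoters and in 6.75% of the 32851 promoter windows of the same length. In F3 it occurred at positions -146 to -140 and -135 to -129 from the start, in Procr at -154 to -148, in Plaur at -69 to -63 and in F2r at -204 to -198. The 2 Tfpi windows held none, but each had a match to the GC box. In 1 of them the letters TATAAA matched on the opposite strand, at -127 to -122. The other had 2 overlapping NF-kB matches on opposite strands, at -220 to -211 and -219 to -210, which are 1 stretch. The NF-kB core (GGG, any 5 bases, CC), searched on both strands like the others, was in the F3, Procr and Plaur windows and in 45.8% of all windows. The GC box GGGCGG was in the F3, Plaur and F2r windows and in 32.7% of all, and in F3 it overlapped an NF-kB match. The C/EBP motif TTGCNNAA was in the Procr and Plaur windows and in 9.56% of all, overlapping an NF-kB match in Procr, and the Egr1 motif GCGNGGGCG was in the Plaur window, overlapping GC boxes, and in 4.70% of all. The STAT motif TTCNNNGAA and the TATA box TATAAA were in none of these 4 windows and in 7.02% and 12.4% of all. A match is a description of the letters and shows no binding.

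Of 52 other genes of coagulation and fibrinolysis, 46 had a probe set here and the other 6 are not analysed here. After LPS, 5 of the 46 rose and 3 fell in KO hearts, and 3 rose and 3 fell in WT hearts, with median log2 changes of 0.05 and 0.08. These are 17.4% and 13% of the 46, where 26.1% and 20.9% of all genes were called. Of the 46, 29 averaged under the median level of 4.64, 14 of them among the 17 clotting factor genes, and 1 of the 29 was called in each genotype. The plot of these genes shows most of them near 0.

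**Figure D5:**
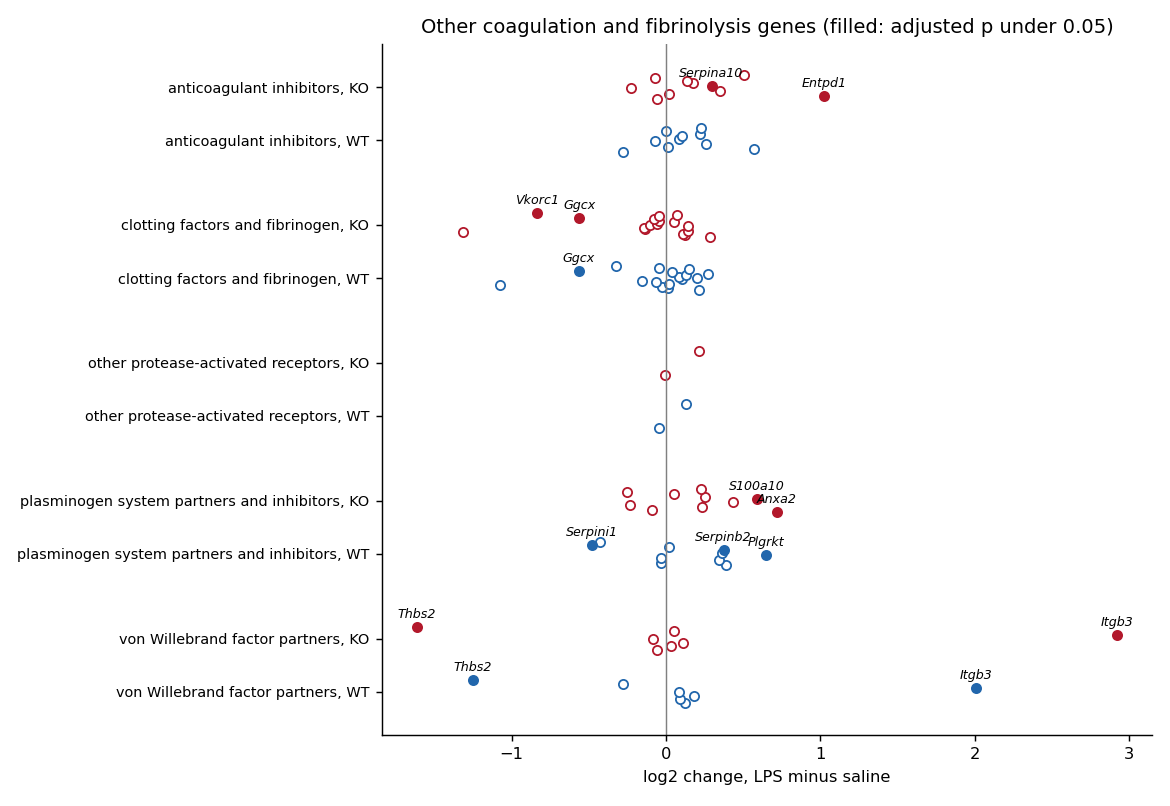
Log2 change, LPS minus saline (horizontal axis), of 46 other genes of coagulation and fibrinolysis by list, in KO and WT hearts, 1 point per gene, filled and named where the adjusted p was under 0.05. Itgb3 (2.93 and 2.01) and Thbs2 (-1.62 and -1.25) stand apart on either side.

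Of 17 clotting factor, fibrinogen and cofactor genes, none rose in either genotype, 2 fell in KO and 1 in WT hearts. Ggcx, the carboxylase that finishes vitamin K-dependent factors, fell by 0.56 ± 0.18 in each genotype. Vkorc1, which recycles the vitamin K that this step uses, fell by 0.84 ± 0.25 in KO hearts and had a log2 change of -0.32 ± 0.25 in WT hearts. F13a1, the clot-stabilising transglutaminase subunit that macrophages also make, averaged 7.88 in KO LPS and 9.20 in KO saline hearts, and its changes of -1.32 ± 0.49 and -1.08 ± 0.49 did not pass (limma adjusted p = 0.0569 and 0.143). The liver-made prothrombin (F2) and fibrinogen chains Fga, Fgb and Fgg averaged 2.99 to 3.70 in every group, under the median level of 4.64.

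Of 10 anticoagulant genes, 2 rose in KO and 0 in WT hearts by limma. Entpd1, which clears ATP and ADP from the vessel surface and so limits platelet activation, averaged 7.19 in KO LPS and 6.16 in KO saline hearts, and 6.96 in WT LPS and 6.39 in WT saline hearts. It rose by 1.02 ± 0.26 in KO hearts (limma adjusted p = 0.00696), and the WT change of 0.57 ± 0.26 did not pass (0.141). Serpina10, an inhibitor of activated factor X, rose by 0.30 ± 0.09 in KO hearts at levels under 4.64.

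Of 10 partners and inhibitors of the plasminogen system, 2 rose in KO hearts, and 2 rose and 1 fell in WT hearts. Anxa2 and S100a10, which together bind plasminogen and its activator on cell surfaces, rose by 0.72 ± 0.15 and 0.59 ± 0.14 in KO hearts. Their WT changes of 0.39 ± 0.15 and 0.36 ± 0.14 did not pass (limma adjusted p = 0.0874 and 0.078). Plgrkt, a plasminogen receptor, rose by 0.65 ± 0.16 in WT hearts, against a log2 change of 0.43 ± 0.16 in KO hearts (limma adjusted p = 0.0598). In WT hearts Serpinb2, a urokinase inhibitor, rose by 0.37 ± 0.12 at levels under 4.64, and Serpini1, an inhibitor of tissue-type activator, fell by 0.48 ± 0.14.

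Of 7 partners of von Willebrand factor, 1 rose and 1 fell in each genotype. Itgb3, the integrin chain that platelets, endothelium and macrophages share, averaged 7.02 in KO LPS and 4.09 in KO saline hearts, and 6.18 in WT LPS and 4.17 in WT saline hearts. It rose by 2.93 ± 0.39 and 2.01 ± 0.39, with saline levels under 4.64. Its platelet partner Itga2b did not pass, at -0.09 ± 0.11 and 0.08 ± 0.11. Thbs2, a matrix glycoprotein, fell, with log2 changes of -1.62 ± 0.17 and -1.25 ± 0.17. Of 9 platelet markers, Ppbp fell in KO hearts, by 1.04 ± 0.25, and limma called 0 in WT hearts. The 2 measured protease-activated receptors besides F2r, F2rl2 and F2rl3, were not called and averaged 3.24 to 3.69. None of the 46 genes was called by limma between the genotypes after LPS or saline or in the difference of responses.

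The genes nearest to each member over the 16 arrays were found by the root mean square difference of log2 values, each gene centred on its own mean. Those nearest to Plaur were Sphk1 (0.33) and Fbp1 (0.35), against a spread of 1.41 of Plaur around its mean. Vwf was nearest to Fbln1 (0.39) and F13a1 (0.43), with a spread of 1.00, and Procr to Errfi1 (0.28) and Slc39a6 (0.30), with a spread of 0.87. F3 was nearest to Mtif2 (0.19) and Ndc1 (0.22), with a spread of 0.57, and Plat to Cd302 (0.18) and Cd33 (0.21), with a spread of 0.56. For Thbd the nearest gene, Qtrt2, lay at 0.27 with a spread of 0.44. For Tfpi, F2r and Plau the nearest genes lay at 0.14, 0.12 and 0.08, with spreads of 0.32, 0.19 and 0.10.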

How the data were processed

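RNA of 16 ventricular samples was labelled as biotinylated cRNA and hybridised to Affymetrix arrays, per the labels' protocols, 1 array per sample and 4 per group. The authors deposited log2 probe set values made with RMA, per the submitters' processing notes. RMA corrects background, quantile-normalizes the arrays and summarises probes, which holds array distributions alike and compresses dim values. The RMA version is not given in the sources used here. Precision is limited by the number of arrays.

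Of 45101 probe sets, 64 controls were left out, 34945 had 1 gene symbol in the platform annotation, 932 several and 9160 none. Of the 34945, 34741 were matched by Entrez identifier to RefSeq symbols (assembly GRCm38.p6). Each of 18193 genes was read from its brightest probe set. Limma 3.58.1 in R 4.3.3 fitted 1 mean per group to all arrays (12 residual degrees of freedom, intensity trend). Tests were two-sided, with Benjamini-Hochberg adjustment over all genes. The fit was tested on simulated data. Members, lists and motifs were chosen with earlier results of these data known. All 9 members were named, with the called genes of each pathway list (at most 4) and the nearest genes; F13a1, F2, Fga, Fgb, Fgg, Itga2b, F2rl2, F2rl3, Kdr, Esam and Ppbp were named after their values had been seen. Probe set comparisons of Tfpi and relations to Plaur were added after the values had been seen. Replicate numbers were not used to pair the arrays in the main fit. Of 24 same-numbered pairs, 2 had deviations correlated over 0.1 (-0.27 to 0.33). The highest value was between KO LPS array 4 and WT LPS array 4, the arrays with the lowest Plaur of their groups. Pairs with different numbers were not compared, so this check cannot exclude a pairing by number. No 2 arrays held identical values (highest correlation between arrays 0.997). Alternatives were other probe set choices, filters, scalings, array weights, a replicate block and leaving out arrays.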

Additional observations from a re-analysis of the deposited data

Results flagged for a closer look

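F3 in KO saline array 1 stood at 6.58, apart from 7.21 to 7.24 in the other KO saline arrays. Its gap to the nearest of them was 0.956 of the group's range. This was 1 flag among 36 groups of 4 arrays, and chance alone flags about 1 in 20. Without that array the log2 change of F3 in KO hearts was -1.19 (limma adjusted p = 0.00232).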

How the results depend on the processing

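Limits are the 4 arrays per group, the dim signal of Plau, 2 WT saline arrays with skeletal muscle transcripts, WT LPS array 4, which lay nearest to the saline arrays, and KO LPS array 2, which lay farthest from them. In 27 alternatives (16 that leave out 1 array and 11 others), the LPS calls of Procr, Plat and Plaur in each genotype and of F3 in KO hearts held in all 27, that of Vwf in KO hearts in 25 and that of F3 in WT hearts in 22. Without WT saline arrays 1 and 4 together, the WT change of F3 was -0.60 (limma adjusted p = 0.247). Leaving out 1 array at a time, 4 to 6 members were called in KO and 3 to 5 in WT hearts. Over the same settings, 3871 to 5527 of all genes were called in KO and 3006 to 4902 in WT hearts. Limma called 0 members in the genotype comparisons and the difference of responses. With the replicate numbers as a block, 5 members were called in KO and 4 in WT hearts. Of all genes, 4487 and 3537 were called with the block, against 4744 and 3798 without it. All probe sets tested separately gave 7611 and 6024 calls, as more features were tested, and leaving out WT saline arrays 1 and 4 gave 2061 in WT hearts. Between KO and WT after saline, array weights gave 21 calls over all genes, a fit of only those 2 groups 14 and a filter on dim genes 0, against 1. After LPS, all probe sets gave 2, and a fit of only those 2 groups or the fit without the 2 WT saline arrays 0, against 1.

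Direction turned only for log2 changes that were not called, and the cause was not tested. Using the mean of all probe sets, the WT LPS change was 0.11 for Tfpi and -0.054 for Plau, and the KO minus WT difference of Plau after LPS was 0.041. The probe set with the highest variance gave 0.06 for Tfpi in WT hearts. With array weights, the WT LPS change of Plau was -0.017, the differences after LPS were 0.001 (Tfpi), -0.037 (Plat) and -0.147 (Plaur), and the difference of responses of Plaur was -0.217. Without the 2 WT saline arrays, the WT LPS change was -0.08 for Thbd and -0.072 for Plau, the difference of Plau after saline was -0.069, and the difference of responses was 0.022 for Plau and -0.045 for Plaur. A second quantile normalization gave 0.002 for Vwf after saline.

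Leaving out 1 array, the KO LPS change ran from -0.019 to 0.582 for Thbd and from -0.095 to 0.009 for Plau. In WT hearts it ran from -0.152 to 0.209 for Thbd and from -0.046 to 0.046 for Plau. The KO minus WT difference after LPS ran from -0.17 to 0.168 for F3, -0.181 to 0.165 for Tfpi, -0.272 to 0.328 for Thbd and -0.165 to 0.131 for Procr. It ran from -0.148 to 0.308 for Plat, -0.083 to 0.012 for Plau and -0.403 to 0.629 for Plaur. After saline it ran from -0.123 to 0.07 for Vwf, -0.043 to 0.06 for Plau and -0.015 to 0.11 for Plaur. The difference of responses ran from -0.041 to 0.56 for Thbd, -0.033 to 0.423 for Plat and -0.464 to 0.567 for Plaur.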
